A study of Mus musculus with 8 samples.

Results

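Described here are the 33 genes of the ATF4 response and of serine and one-carbon metabolism in tumors of Tsc2-null 105K cells, of 35539 genes listed. The members were taken by gene name from a list drawn up with earlier results of these data known, and the rule itself uses no measured value. They fall into 16 biosynthesis enzymes and 17 factors and stress-response genes. RNA was sequenced from 8 tumors, 2 for each treatment: loratadine with rapamycin (A3L and C1R), rapamycin (D1L and G3L), loratadine (B3R and F3R) and vehicle (B1L and F5L). Each code gives the cage, the animal and the left or right side. Loratadine is an antagonist of the histamine receptor HRH1, given at 25 mg/kg/day, and rapamycin is an inhibitor of mTORC1, given at 0.25 mg/kg/day. By the labels the drugs were prepared in carboxymethylcellulose, which at 0.2% was the vehicle, while the study's methods add a Tween detergent to the vehicle. The cells are a single Tsc2-deficient mouse line, which the study's methods describe as kidney cystadenoma cells. They were grown under the skin of immunocompetent, age-matched female C57BL/6J mice that were 6 weeks old when obtained. Rapamycin was given on 5 days a week and loratadine on 3.

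All tumors were grown from Tsc2-null cells, so no comparison here is between Tsc2 genotypes. Loss of TSC2 leaves mTORC1 active in the absence of growth factors. ATF4 is a transcription factor whose translation increases when the initiation factor eIF2 is phosphorylated by stress kinases, and mTORC1 also raises it. It turns on genes for amino acid synthesis and uptake, tRNA charging, and serine and one-carbon metabolism, and under lasting stress also regulators such as Ddit3 and Trib3. Serine made from glucose feeds glycine and folate-bound carbon units, which go into purines, thymidylate and methionine. As ATF4 is regulated largely at translation, the level of its own mRNA does not report its activity.

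The design places limits on every comparison below. The tumors without rapamycin came from cages B and F and those with rapamycin from cages A, C, D and G, so cage and rapamycin cannot be told apart. Rapamycin and its combination were also started at a larger tumor volume than the other treatments, which cannot be told apart from rapamycin either. Loratadine tumors B3R and F3R were on the right side and the vehicle tumors on the left. The labels call the tissue a mammary tumor, but of the 8 mammary epithelium markers the milk protein genes Csn2 and Wap were at no more than 0.02 TPM in any tumor. The summed level of the 8 was 174 TPM in B1L, nearly all from Csn3 (174 TPM), 41.5 TPM in F5L, mostly from Krt14 (39.6 TPM), and 3.29 to 16.1 TPM in the other tumors. The kidney lineage factors Pax2 (13.0 to 30.5 TPM) and Pax8 (23.9 to 62.8 TPM) were present in all 8 tumors. Tsc2 was listed at 42.0 to 78.1 TPM, a gene total that does not show whether the mutated part is covered. The deposited values are TPM, a share of transcripts corrected for gene length, so levels can be compared between genes but the read depth is unknown. Between 13251 and 14371 genes reached 1 TPM in a tumor.

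Of the 32 members tested, 16 fell with rapamycin and 0 rose, over 4 tumors with rapamycin against 4 without it (limma on log2(TPM + 1), adjusted p under 0.05). Of all 15095 genes tested, 7.88% were lower and 12.0% higher by the same rule. With an unadjusted p under 0.05, 20 members were lower and 1 higher, against 5659 of the 15095 genes in either direction. Without overlap between the arms, 16 of the 32 were lower and 0 higher, against 10.5% lower and 15.7% higher of all genes. Ddit3 and Chac1 passed the test with overlapping arms, and Pycr1 and Vldlr did not pass it although their arms did not overlap. The enzymes contributed 10 of their 16 genes, and the factors and stress-response genes 6 of the 16 tested. The median log2 fold change was -1.81 for the enzymes and -0.59 for the other members, against 0.12 for all genes tested. Fgf21, a secreted stress hormone, was at no more than 0.38 TPM and was not tested. Of the 32 members, 0 passed for the loratadine effect in limma (0.00% of all genes were lower and 0.00% higher). Without adjustment, 5 members were lower and 0 higher at p under 0.05, against 1255 of the 15095 genes in either direction. Between the 4 tumors with loratadine and the 4 without it, 0 of 32 were lower or higher without overlap, against 0.325% lower and 2.42% higher of all genes. Fold changes are on the log2(TPM + 1) scale, which understates the change of low genes. In a whole tumor, fewer cells that express a gene cannot be told apart from less RNA per cell.

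**Figure D1:**
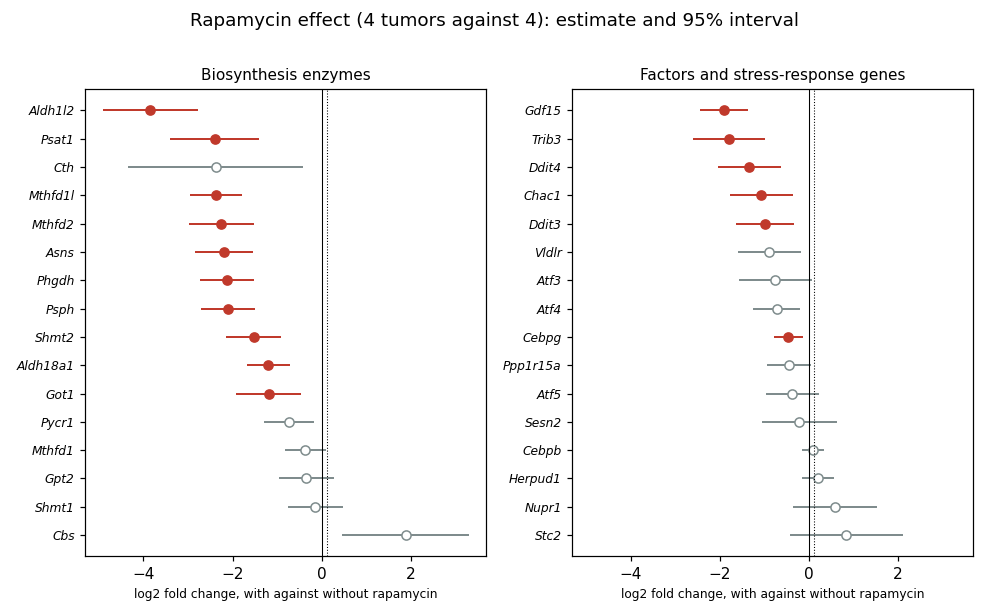
Log2 fold change of log2(TPM + 1), with against without rapamycin (4 tumors against 4), for the 32 members tested; points are estimates, bars 95% intervals, and filled points have an adjusted p under 0.05. The dotted line is the median of all genes tested (0.12); all 16 filled points, 10 enzymes at the left and 6 other members at the right, lie below 0.

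ATF4 with a C/EBP partner binds a composite element with the core TGATGNAA, and the promoters of members are shown because the genes that hold this core did not all move together. Promoter windows of RefSeq (GRCm38.p6, 250 bases before to 50 after the start) were found for 31 of the 33 members, all but Cth and Aldh1l2. The core was matched on either strand in 10 of these 31 (32.3%), against 4.51% of 27025 genes. It was present in 4 of 15 members that fell with rapamycin (26.7%) and in 5 of 15 tested members that did not pass (33.3%). The members were chosen as genes of the ATF4 response and of serine and one-carbon metabolism, so their share with the core is not independent of that choice. A second motif, the ER stress element bound by ATF6, was searched on both strands and shared no match with the core. It was found in 0 of 31 members, against 0.137% of all genes, and at so rare a motif this 0 says little. In the windows below, read 5′ to 3′ along the gene, capitals mark the core, which appears as TTGCATCA or TTACATCA where it lies on the opposite strand. The first 4 belong to members that fell with rapamycin, and the last 3 to members that did not pass. Herpud1 and Vldlr, which also did not pass, and Fgf21, which was not tested, hold the core too. Their windows are not printed.
Asns, chr6:7693210-7693269, minus strand: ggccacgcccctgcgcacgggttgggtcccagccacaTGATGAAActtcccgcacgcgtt
Trib3, chr2:152344028-152344057, minus strand: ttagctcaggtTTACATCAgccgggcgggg
Chac1, chr2:119351023-119351082, plus strand: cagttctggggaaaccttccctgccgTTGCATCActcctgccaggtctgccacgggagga
Got1, chr19:43524674-43524733, minus strand: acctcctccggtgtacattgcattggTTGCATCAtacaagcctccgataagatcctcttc
Atf3, chr1:191183410-191183469, minus strand: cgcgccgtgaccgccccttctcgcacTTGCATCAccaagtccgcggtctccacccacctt
Nupr1, chr7:126625547-126625606, minus strand: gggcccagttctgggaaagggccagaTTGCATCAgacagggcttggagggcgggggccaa
Pycr1, chr11:120643818-120643877, minus strand: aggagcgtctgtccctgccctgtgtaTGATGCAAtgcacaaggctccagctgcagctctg
The core began 23 bases before the start in Asns and 15 bases after it in Trib3, and between 102 and 193 bases before the start in Chac1, Got1, Atf3, Nupr1 and Pycr1. A match is a description of letters and not a measured binding site.

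The 3 enzymes that make serine from a glycolytic intermediate all fell with rapamycin. Phgdh, which catalyzes the first and committed step (chr3:98117093-98143913, mm9), was at 27.4 and 53.9 TPM with both drugs and 30.1 and 42.6 TPM with rapamycin, against 119 and 162 TPM with loratadine and 171 and 225 TPM with vehicle. Psat1, the aminotransferase of the second step, was at 22.1 and 47.1 TPM with both drugs and 13.4 and 48.0 TPM with rapamycin, against 124 and 258 TPM with loratadine and 119 and 158 TPM with vehicle. Psph, the phosphatase that releases serine, was at 18.4 and 20.4 TPM with both drugs and 15.1 and 18.7 TPM with rapamycin, against 52.3 and 64.9 TPM with loratadine and 89.6 and 137 TPM with vehicle. For each of the 3 genes, every tumor with rapamycin lay below every tumor without it. The log2 fold change was -2.12 ± 0.26 for Phgdh (standard error; limma adjusted p = 0.0073), -2.40 ± 0.42 for Psat1 (adjusted p = 0.0124) and -2.10 ± 0.26 for Psph (adjusted p = 0.0073). Summed over the 3 genes, the level was 58.7 to 121 TPM with rapamycin and 295 to 520 TPM without it.

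**Figure D2:**
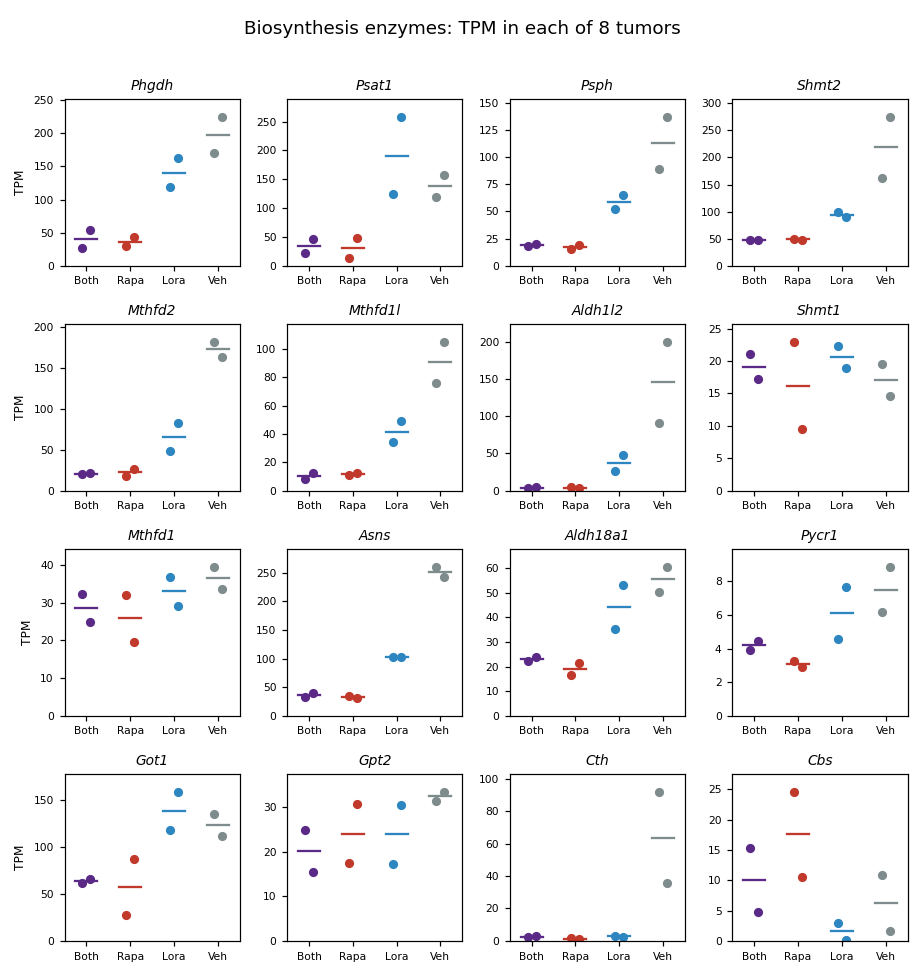
TPM of each of the 16 biosynthesis enzymes in each tumor (points) with the mean of the 2 tumors of a treatment (lines); Both is loratadine with rapamycin, Rapa rapamycin, Lora loratadine and Veh vehicle, and each axis starts at 0. For the serine synthesis genes and the mitochondrial folate genes the 4 tumors with rapamycin lie below the 4 without it, while Cbs has its highest value (24.6 TPM) in a rapamycin tumor.

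The mitochondrial folate enzymes, which take the carbon of serine and pass it on as formate, also fell, all 4 of them. Shmt2, which splits serine into glycine and a folate-bound carbon in mitochondria, was at 48.1 and 48.4 TPM with both drugs and 49.4 and 47.5 TPM with rapamycin, against 98.5 and 90.0 TPM with loratadine and 162 and 275 TPM with vehicle. Mthfd2, the mitochondrial dehydrogenase and cyclohydrolase of the pathway (chr6:83255685-83267600, mm9), was at 19.9 and 21.4 TPM with both drugs and 17.6 and 27.0 TPM with rapamycin, against 48.6 and 82.3 TPM with loratadine and 182 and 164 TPM with vehicle. The tumors thus formed 3 tiers for these genes, with the rapamycin-treated ones lowest, loratadine alone between and vehicle highest. The middle tier rests on 2 tumors against 2. For loratadine against vehicle 0 of the 4 mitochondrial folate enzymes passed in limma, and 14.9% of all genes were lower without overlap. Mthfd1l, which releases formate, was at 8.05 and 12.4 TPM with both drugs and 11.2 and 12.6 TPM with rapamycin, against 34.1 and 49.1 TPM with loratadine and 76.4 and 105 TPM with vehicle. Aldh1l2, which oxidizes formyl-folate and yields NADPH in mitochondria (chr10:82950195-82996885, mm9), was at 3.04 and 5.11 TPM with both drugs and 4.72 and 3.10 TPM with rapamycin, against 26.3 and 48.2 TPM with loratadine and 91.5 and 200 TPM with vehicle. Aldh1l2 had the most negative log2 fold change of the 32 members, -3.85 ± 0.46 (95% interval -4.90 to -2.80; limma adjusted p = 0.0073), a 14.4-fold lower level on this scale. The log2 fold change was -1.53 ± 0.26 for Shmt2 (adjusted p = 0.0117), -2.25 ± 0.31 for Mthfd2 (adjusted p = 0.0082) and -2.37 ± 0.25 for Mthfd1l (adjusted p = 0.0072).

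The cytosolic counterparts did not pass the test. Shmt1, the cytosolic serine hydroxymethyltransferase, was at 9.46 to 22.9 TPM with rapamycin and 14.7 to 22.3 TPM without it (log2 fold change -0.14, 95% interval -0.74 to 0.45; limma adjusted p = 0.714). Mthfd1, the cytosolic enzyme that carries 3 folate reactions in a single protein, was at 19.6 to 32.2 TPM with rapamycin and 29.1 to 39.5 TPM without it (log2 fold change -0.36, 95% interval -0.81 to 0.08; adjusted p = 0.204). The 2 arms of both genes overlapped. As a ratio of levels within a tumor, chosen after the values were seen, Shmt2 to Shmt1 was 2.15 to 5.03 with rapamycin and 4.41 to 18.7 without it, and Mthfd2 to Mthfd1 was 0.549 to 1.38 with rapamycin and 1.32 to 4.87 without it. Both ratios overlapped between the arms, by tumor G3L on the side with rapamycin and by B3R (and for Shmt2 to Shmt1 also F3R) on the side without it.

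Of the enzymes of other amino acids, Asns, Aldh18a1 and Got1 fell. Asns makes asparagine and is among the best known ATF4 targets (chr6:7625169-7643254, mm9; its TGATGAAA core is shown above). It was at 33.5 and 39.3 TPM with both drugs and 33.8 and 31.6 TPM with rapamycin, against 103 and 103 TPM with loratadine and 260 and 243 TPM with vehicle. The tumors of a treatment lay close together, and those with loratadine alone fell between the vehicle and the rapamycin-treated tumors (log2 fold change for rapamycin -2.19 ± 0.27, limma adjusted p = 0.0075). For loratadine against vehicle Asns did not pass (limma adjusted p = 0.0957). Aldh18a1, which begins proline synthesis from glutamate, was at 22.2 and 24.0 TPM with both drugs and 16.5 and 21.4 TPM with rapamycin, against 35.4 and 53.2 TPM with loratadine and 50.4 and 60.5 TPM with vehicle (log2 fold change -1.19 ± 0.20, adjusted p = 0.0114). Got1, the cytosolic aspartate aminotransferase, was at 62.0 and 66.2 TPM with both drugs and 28.0 and 87.0 TPM with rapamycin, against 118 and 159 TPM with loratadine and 135 and 112 TPM with vehicle (log2 fold change -1.19 ± 0.31, adjusted p = 0.0342). The 2 rapamycin tumors differed widely for Got1, although both lay below all 4 tumors without the drug.

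The remaining 4 enzymes did not pass. Pycr1, which completes proline synthesis, was at 2.93 to 4.47 TPM with rapamycin and 4.55 to 8.86 TPM without it, with no overlap (log2 fold change -0.73, limma adjusted p = 0.0588). Gpt2, the mitochondrial alanine aminotransferase, was at 15.4 to 30.7 TPM with rapamycin and 17.2 to 33.4 TPM without it (log2 fold change -0.34, adjusted p = 0.359). The 2 transsulfuration enzymes, which carry sulfur from homocysteine to cysteine, differed from the rest. Cbs, the first of them, was at 15.4 and 4.72 TPM with both drugs and 24.6 and 10.6 TPM with rapamycin, against 2.89 and 0.21 TPM with loratadine and 10.9 and 1.67 TPM with vehicle. It was the enzyme with a positive estimate (log2 fold change 1.89, adjusted p = 0.0624), and the arms overlapped through vehicle tumor B1L; without B1L it passed (adjusted p = 0.0483). Cth, the second enzyme and an ATF4 target (chr3:157557212-157588041, mm9), was at 2.24 and 2.70 TPM with both drugs and 1.92 and 0.90 TPM with rapamycin, against 3.06 and 2.54 TPM with loratadine and 91.9 and 35.7 TPM with vehicle. Cth was thus high in the 2 vehicle tumors and low in the 6 others (log2 fold change for rapamycin in the additive model -2.38 ± 0.85, adjusted p = 0.0801); from 4 group means the same contrast had an adjusted p of 0.0098.

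Of the 5 stress-response genes Ddit3, Trib3, Chac1, Sesn2 and Gdf15, 4 fell with rapamycin. Ddit3, also called CHOP, the transcription factor linked to cell death under lasting stress, was at 106 and 131 TPM with both drugs and 88.4 and 201 TPM with rapamycin, against 163 and 201 TPM with loratadine and 324 and 360 TPM with vehicle. The arms overlapped, since rapamycin tumor G3L reached the loratadine tumors, and the log2 fold change was -0.98 ± 0.27 (limma adjusted p = 0.0399). Ddit3 lies across from the gene Mars on the opposite strand, and whether strand was used in counting is not given in the sources used here; Mars itself was at 91.5 to 125 TPM (log2 fold change 0.02, adjusted p = 0.921). Trib3, a pseudokinase induced by ATF4 and Ddit3 that restrains both, was at 20.1 and 17.1 TPM with both drugs and 18.8 and 39.4 TPM with rapamycin, against 44.9 and 83.4 TPM with loratadine and 69.4 and 162 TPM with vehicle. Its arms did not overlap (log2 fold change -1.79 ± 0.34, adjusted p = 0.0146).

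Chac1, which degrades glutathione, was at 10.7 and 11.0 TPM with both drugs and 17.9 and 14.3 TPM with rapamycin, against 18.6 and 17.4 TPM with loratadine and 28.5 and 72.6 TPM with vehicle. Its arms met at rapamycin tumor D1L and loratadine tumor F3R, and the log2 fold change was -1.07 ± 0.30 (limma adjusted p = 0.0410). Gdf15, a secreted hormone of cell stress that acts on appetite (chr8:73153292-73156355, mm9), was at 88.9 and 87.0 TPM with both drugs and 99.3 and 187 TPM with rapamycin, against 266 and 446 TPM with loratadine and 469 and 517 TPM with vehicle. All 4 tumors with rapamycin were below the 4 without it, and Gdf15 had the most negative log2 fold change of the factors and stress-response genes tested (-1.90 ± 0.23, adjusted p = 0.0073). Sesn2, a leucine sensor that restrains mTORC1, was at 22.1 and 12.1 TPM with both drugs and 32.2 and 10.2 TPM with rapamycin, against 14.3 and 14.2 TPM with loratadine and 28.7 and 28.1 TPM with vehicle. Its highest and lowest values were both in rapamycin tumors, and it did not pass (log2 fold change -0.21, 95% interval -1.04 to 0.62; adjusted p = 0.701).

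**Figure D3:**
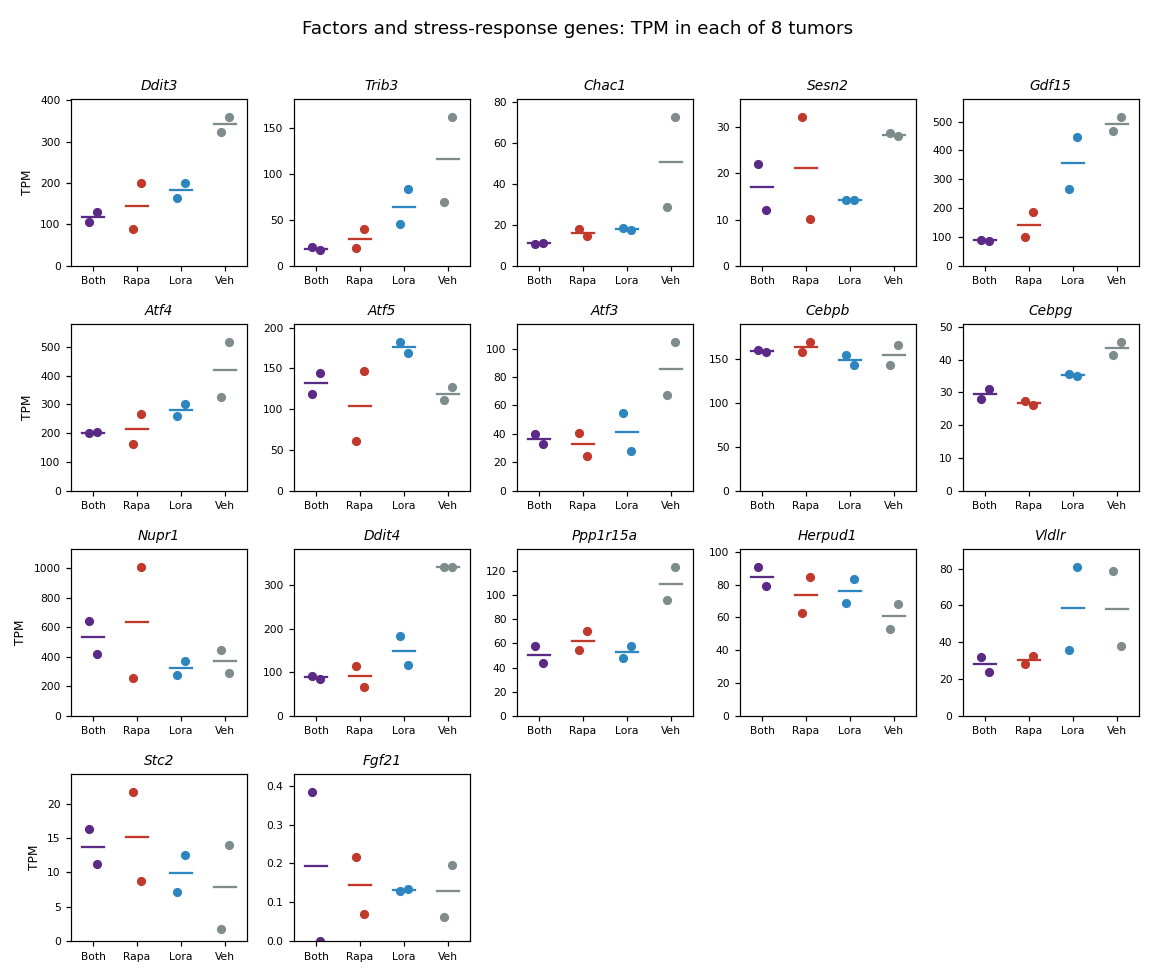
TPM of each of the 17 factors and stress-response genes in each tumor (points) with the mean of the 2 tumors of a treatment (lines); Both is loratadine with rapamycin, Rapa rapamycin, Lora loratadine and Veh vehicle, and each axis starts at 0. Gdf15 and Trib3 separate the tumors with rapamycin from those without it, whereas Cebpb stays between 143 and 169 TPM in all 8. For Ddit4 the highest tumor with rapamycin (D1L) and the lowest without it (F3R) are both at 116 TPM.

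Among the other transcription factors, Cebpg fell and Atf4 narrowly missed the threshold. Atf4 mRNA was at 199 and 205 TPM with both drugs and 163 and 268 TPM with rapamycin, against 260 and 302 TPM with loratadine and 325 and 517 TPM with vehicle. Rapamycin tumor G3L lay above loratadine tumor B3R, and the log2 fold change was -0.72 ± 0.22 (95% interval -1.22 to -0.22; limma adjusted p = 0.0514). Atf4 passed under 3 of 18 alternative analyses. Cebpg, a C/EBP partner of ATF4, was at 28.1 and 31.1 TPM with both drugs and 27.3 and 26.2 TPM with rapamycin, against 35.5 and 35.0 TPM with loratadine and 41.5 and 45.4 TPM with vehicle, which did not overlap (log2 fold change -0.46 ± 0.13, adjusted p = 0.0432). Atf3 and Atf5, stress-induced relatives of ATF4, did not pass, with 24.3 to 40.8 TPM with rapamycin and 27.9 to 105 TPM without it for Atf3 (log2 fold change -0.75, adjusted p = 0.152), and 60.5 to 147 TPM with rapamycin and 111 to 183 TPM without it for Atf5 (log2 fold change -0.37, adjusted p = 0.306). Cebpb was at 158 to 169 TPM with rapamycin and 143 to 165 TPM without it (log2 fold change 0.09, adjusted p = 0.527; -0.07 after median-of-ratios scaling). Nupr1, a small stress-induced nuclear protein, ranged from 257 to 1010 TPM with rapamycin and from 279 to 446 TPM without it (log2 fold change 0.59, adjusted p = 0.309), with the 2 extremes in the rapamycin tumors D1L and G3L.

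Of the remaining effectors, Ddit4, an inhibitor of mTORC1 also called REDD1, fell. It was at 92.1 and 85.5 TPM with both drugs and 116 and 66.4 TPM with rapamycin, against 183 and 116 TPM with loratadine and 342 and 343 TPM with vehicle. Vehicle tumors stood well above all others, and the lowest loratadine tumor was level with the highest rapamycin tumor (log2 fold change -1.33 ± 0.30, limma adjusted p = 0.0221). Vldlr, a lipoprotein receptor, was at 23.8 to 32.6 TPM with rapamycin and 35.8 to 80.9 TPM without it, with no overlap and an adjusted p of 0.0714 (log2 fold change -0.88). Ppp1r15a, the phosphatase subunit that reverses eIF2 phosphorylation, was at 43.4 to 70.2 TPM with rapamycin and 47.7 to 123 TPM without it (log2 fold change -0.44, adjusted p = 0.152). Herpud1, a component of ER-associated degradation, was at 62.9 to 90.8 TPM with rapamycin and 53.1 to 83.4 TPM without it (log2 fold change 0.21, adjusted p = 0.321). Stc2, a secreted glycoprotein, was at 8.68 to 21.8 TPM with rapamycin and 1.70 to 14.0 TPM without it (log2 fold change 0.85, adjusted p = 0.288).

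Of the 16 members that fell, 11 were called in all 18 alternative analyses: Asns, Phgdh, Psat1, Psph, Shmt2, Mthfd2, Mthfd1l, Aldh1l2, Aldh18a1, Trib3 and Gdf15. The other 5 were lost when single tumors were left out, and calls among these 5 were also lost under other alternatives. The limma adjusted p of Ddit4 was 0.0635 without B1L, 0.0674 without F5L and 0.0587 without D1L. That of Ddit3 was 0.0990 without B1L, 0.109 without F5L, 0.0781 without F3R and 0.0944 without A3L. Got1 was lost without any tumor other than D1L or G3L (adjusted p 0.0515 to 0.0893), Chac1 without any other than F5L (0.0507 to 0.0967), and Cebpg without any other than C1R (0.0637 to 0.120).

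The rapamycin difference was next taken separately in tumors without and with loratadine. The pair without loratadine and the pair with it share no tumor, and each sets 2 tumors against 2. Rapamycin against vehicle called 12 members lower and 0 higher, against 5.21% lower and 6.65% higher of all genes tested. The enzymes among them were Asns (log2 fold change -2.90 ± 0.15, limma adjusted p = 0.0018), Aldh1l2 (-4.81 ± 0.46, adjusted p = 0.0097), Cth (-4.63 ± 0.46, adjusted p = 0.0097), Psph, Mthfd2, Mthfd1l, Shmt2, Phgdh and Aldh18a1, and the others were Ddit4 (-1.95 ± 0.30, adjusted p = 0.0188), Gdf15 and Cebpg. This count was 5 without vehicle tumor B1L and 7 without vehicle tumor F5L.

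Both drugs against loratadine called 0 members and 0 of all genes (0.00%), with 2204 genes at an unadjusted p under 0.05, of which 11 were members that were lower and 1 a member that was higher. The 16 members that fell over all tumors were picked in part by the tumors of this pair, so their sign here is no independent check. The estimates of these 16 were negative, among them Aldh1l2 (-2.88 ± 0.46, limma adjusted p = 0.146), Psat1 (-2.43 ± 0.64, adjusted p = 0.227), Gdf15 (-1.96 ± 0.34, adjusted p = 0.163) and Asns (-1.48 ± 0.15, adjusted p = 0.0695). Without overlap between the tumors, 20 of 32 members were lower and 3 higher with both drugs than with loratadine, against 20.7% and 33.8% of all genes.

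**Figure D4:**
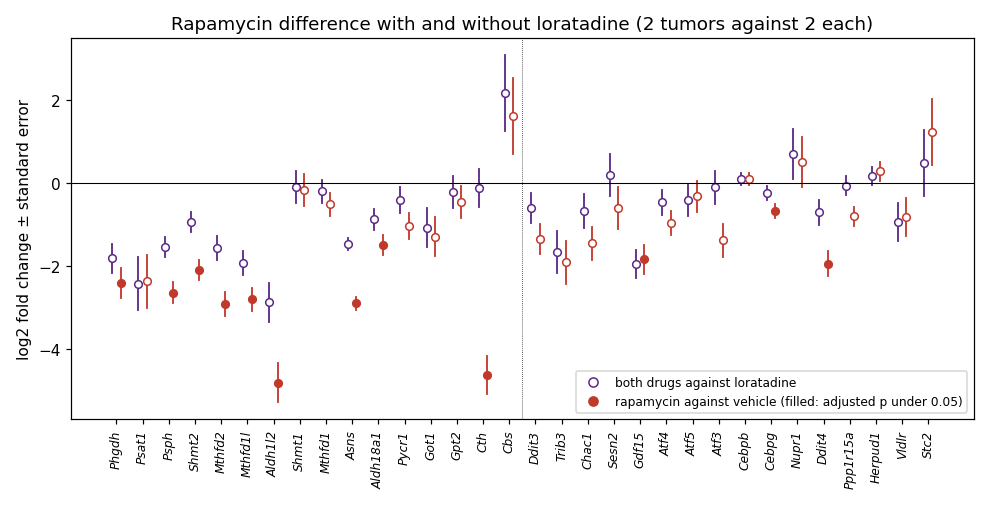
Log2 fold change of log2(TPM + 1) with standard error for the 32 members, for both drugs against loratadine and for rapamycin against vehicle (2 tumors against 2 each); filled points have an adjusted p under 0.05 and the vertical line separates the 16 enzymes from the other members. The 12 filled points all belong to rapamycin against vehicle, and Cth lies at -0.13 with loratadine in the background and at -4.63 without it.

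The difference between these pairs was tested as an interaction, and 0 members passed (1 of all genes did, 0.00662%). At an unadjusted p under 0.05, 7 members had a positive estimate and 0 a negative one, against 719 of all 15095 genes in either direction. The estimate was positive for 26 of 32 members. Their median was 0.57, against -0.03 for all genes tested. For a gene that fell, a positive estimate means a smaller fall with loratadine in the background. Cth had the largest of the 32 estimates (4.50 ± 0.65, limma adjusted p = 0.354), and Asns had 1.42 ± 0.21 (adjusted p = 0.422). Psat1 (-0.05 ± 0.90) and Gdf15 (-0.11 ± 0.48) had estimates near 0, with wide errors.

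For loratadine alone against vehicle, 0 members passed, and 3 of all genes did (0.0199%; 0.0132% lower and 0.00662% higher). At an unadjusted p under 0.05, 12 members were lower and 0 higher, against 1826 of all 15095 genes in either direction. This pair shares its vehicle tumors with rapamycin against vehicle, so the values are given side by side and were not correlated. Without overlap between the tumors, 18 of 32 members were lower with loratadine than with vehicle and 2 (Atf5 and Herpud1) were higher, against 14.9% lower and 33% higher of all genes. The 18 included Asns (log2 fold change -1.28 ± 0.15, limma adjusted p = 0.0957), Cth (-3.94 ± 0.46, adjusted p = 0.0957), Aldh1l2 (-1.89 ± 0.46, adjusted p = 0.272), Mthfd2 (-1.43 ± 0.29, adjusted p = 0.259) and Ddit4 (-1.23 ± 0.30, adjusted p = 0.272), of which each estimate was smaller in size than that for rapamycin against vehicle. Psat1 and Got1 were not among them, with estimates of 0.38 ± 0.64 and 0.15 ± 0.47. Cages B and F each held 1 loratadine and 1 vehicle tumor, but a fit with the cage as a block has 1 residual degree of freedom, and it called 0 members and 0 of 13805 genes (1845 at an unadjusted p under 0.05), so it says little on the members. Markers of some other cell types moved in the same pair of treatments, and those of others did not beyond the shares of all genes. Of 8 macrophage markers 1 was higher and 1 lower without overlap. For mast cell markers the counts were 1 and 0 of 8, and for endothelial markers 2 and 1 of 8. Without overlap, 8 of 8 fibroblast markers (summed at 785 to 1407 TPM with loratadine and 326 to 424 TPM with vehicle), 7 of 8 adipocyte markers (467 to 719 TPM with loratadine and 47.6 to 60 TPM with vehicle) and 7 of 8 T cell markers (22.1 to 34.7 TPM with loratadine and 11.8 to 15.2 TPM with vehicle) were higher with loratadine, and their part in the levels of the members was not tested.

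Both drugs against rapamycin also called 0 members and 0.00% of all genes in limma, with 0 members and 359 genes at an unadjusted p under 0.05. The median log2 fold change of the 32 members was 0.02, against 0.08 for all genes tested. Without overlap between the tumors, 2 members (Chac1 and Gdf15) were lower and 4 (Aldh18a1, Pycr1, Cth and Cebpg) were higher with both drugs than with rapamycin, against 6.65% and 19.4% of all genes. The estimates ranged from -0.83 for Cbs to 0.56 for Cth. In the loratadine effect over all 8 tumors, 1255 genes had an unadjusted p under 0.05, and the median of the members was -0.36.

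Other genes of the same pathways were taken from lists that were also drawn up with earlier results of these data known. Their counts are therefore no independent check on those of the members. Of 20 further ATF4 targets for amino acid uptake and tRNA charging, 12 fell with rapamycin and 0 rose, against 7.88% lower and 12.0% higher of all genes tested. Gars, the glycyl-tRNA synthetase, averaged 83.5 ± 8.48 TPM with rapamycin and 255 ± 102 TPM without it (SD, n = 4 each; log2 fold change -1.51, limma adjusted p = 0.0082). Aars (-1.35, adjusted p = 0.0072) and Iars (-1.12, adjusted p = 0.0110), which charge alanine and isoleucine, and Slc7a5, the light chain of a leucine transporter (-1.19, adjusted p = 0.0120), fell as well. The median of the list was -0.96.

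Of 15 genes for eIF2 kinases, eIF2 and eIF2B, upstream of ATF4, 4 fell and 1 rose with rapamycin, with a median of -0.11, against 7.88% lower and 12.0% higher of all genes and their median of 0.12. Eif2s1, the eIF2 subunit that the stress kinases phosphorylate, averaged 46.9 ± 17.6 TPM with rapamycin and 115 ± 13.5 TPM without it (SD, n = 4 each; log2 fold change -1.34, limma adjusted p = 0.0120). Eif2s3x, Eif2b1 and Eif2s2 fell by 0.70, 0.59 and 0.57 on the log2 scale, while Gcn1l1, an activator of the amino acid sensing kinase and named after its value was seen, rose by 0.57.

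**Figure D5:**
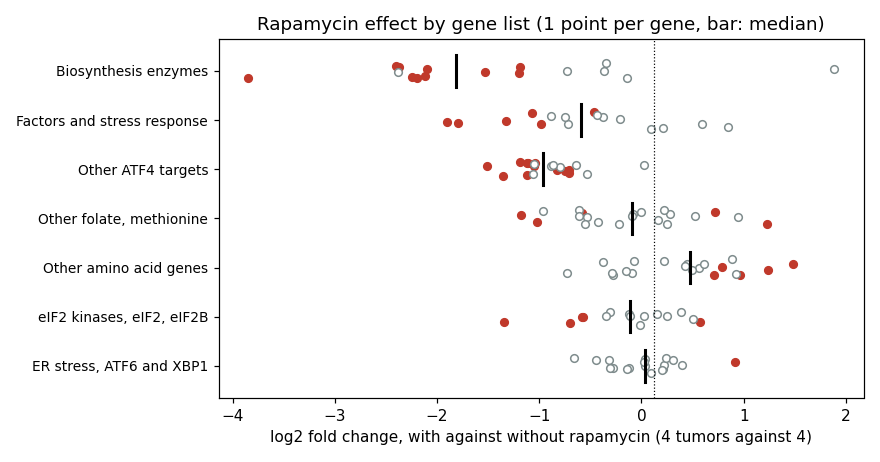
Log2 fold change with against without rapamycin (4 tumors against 4) for each tested gene of the 2 member groups and 5 other lists; filled points have an adjusted p under 0.05, the bar is the list's median and the dotted line the median of all genes tested (0.12). The enzymes (median -1.81) and the other ATF4 targets (median -0.96) lie to the left, and the ER stress genes (median 0.03) lie around 0.

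Of 21 tested genes of the folate and methionine cycles outside the members, 3 fell and 2 rose with rapamycin, counts near the shares of all genes (7.88% lower and 12.0% higher). Tyms, which makes thymidylate, fell (log2 fold change -1.03, limma adjusted p = 0.0206), as did Ahcy (-0.58, adjusted p = 0.0490), which was named after its value was seen and hydrolyzes S-adenosylhomocysteine. Amt, of the glycine cleavage system, rose (1.22, adjusted p = 0.0120), and so did Ggh (0.72, adjusted p = 0.0260), which trims folate polyglutamates. Of 20 other genes of non-essential amino acids, 0 fell and 5 rose: Asrgl1 (1.48, adjusted p = 0.0189), an asparaginase, Glul (1.24, adjusted p = 0.0392), the glutamine synthetase, Gpt (0.97), Bcat2 (0.79) and, named after its value was seen, Csad (0.71). The median of that list was 0.47, against -1.81 for the member enzymes.

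The ER stress genes outside the ATF4 arm had a median log2 fold change of 0.03, against 0.12 for all genes tested. Of 18 genes of the ATF6 and XBP1 arms, 0 fell in limma and 1 rose at adjusted p under 0.05. These counts are near the shares of all genes, 7.88% lower and 12.0% higher. With an unadjusted p under 0.05, 2 were lower and 2 higher, against 5659 of all 15095 genes in either direction. The gene that rose past the adjusted threshold was Xbp1 itself. It averaged 190 ± 27.7 TPM with rapamycin and 100 ± 16.9 TPM without it (SD, n = 4 each, log2 fold change 0.91, limma adjusted p = 0.0115). Edem1, which directs misfolded proteins to degradation, had the next smallest p of the list (-0.66, adjusted p = 0.0548).

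Other genes moved with rapamycin in the same tumors, in lists also drawn up with earlier results of these data known. The counts are limma calls at adjusted p under 0.05, by which 7.88% of all genes tested were lower and 12.0% higher. All 10 proliferation genes fell, with a median log2 fold change of -2.32. Their summed level was 143 to 395 TPM with rapamycin and 726 to 1190 TPM without it. T cell markers rose, 7 of 8, with a summed level of 41.1 to 112 TPM with rapamycin and 11.8 to 34.7 TPM without it. Fibroblast markers rose, 4 of 8 (646 to 4423 TPM with rapamycin and 326 to 1407 TPM without it), and endothelial markers fell, 3 of 8 (43.2 to 68.1 TPM with rapamycin and 75.0 to 119 TPM without it). All 8 markers of each of these 3 lists reached 1 TPM in at least 2 tumors. Renal tubule markers rose, 2 of 6 tested (381 to 632 TPM with rapamycin and 150 to 299 TPM without it), and of 4 melanocytic markers tested 1 fell and 1 rose (69.0 to 136 TPM with rapamycin and 148 to 376 TPM without it). Single tumors stood apart for muscle fibre markers, at 153 TPM in C1R against 3.19 to 9.32 TPM in the others, and for mast cell markers, at 556 TPM in G3L against 18.1 to 103 TPM in the others. Adipocyte markers, of which 0 of 8 passed, were summed at 205 to 719 TPM in B3R, F3R, D1L and A3L and at 25.4 to 60 TPM in the other tumors. Of 8 macrophage markers 0 passed, with a summed level of 769 to 1904 TPM with rapamycin and 566 to 1301 TPM without it. The part of these cell types and of proliferation in the levels of the members was not tested.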

How the data were processed

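The authors deposited TPM per gene for 8 tumors. The study's methods name Kallisto, mm9, tximport and Ensembl annotation, whereas the processing notes of the submitters list mm9 with bedtools, SAMtools 0.1.18 and STAR 2.4.0f1; which gave the values is not settled here. TPM keeps no depth, so the error of each value is its spread over tumors. The methods give loratadine as oral and the labels as intraperitoneal.

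Members were matched by gene name, and of several rows with a name the one with the highest mean was used. Members and lists were chosen with earlier results of these data known. The 15095 genes that reached 1 TPM in 2 or more tumors were tested on log2(TPM + 1) by limma (version 3.58.1, R 4.3.3) with an intensity trend and empirical Bayes. P-values are two-sided and were adjusted over these genes by Benjamini-Hochberg, with calls at adjusted p under 0.05. Rapamycin and loratadine effects are terms of an additive model with 5 residual degrees of freedom; pairs and the interaction use 4 group means with 4. By the tumor codes, the 2 tumors of a group came from different animals. The scripts were tested on simulated data. Full values are given for members that passed, Atf4 and the 5 stress genes; of each other list up to 4 genes with the largest change past the threshold and at least 5 TPM in the higher group, or the 2 smallest p. Alternatives were pseudocounts of 0.1 and 0.5, other filters (none, or an average of 5 TPM or more), quantile and median-of-ratios scaling, limma without the trend, robust or with array weights, group means, each tumor left out, only the groups compared, and the cage as a block. Coordinates of genes are from NCBIM37 (mm9). A gene that the naming rule takes is not reported here.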

Additional observations from a re-analysis of the deposited data

How the results depend on the processing

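The count of members lower with rapamycin was 16, and 11 to 18 under the alternatives (11 to 15 with a tumor left out). The count of members higher was 0, and 1 with array weights; with a tumor left out it was 0 to 1. The 1 was Cbs, with array weights and without vehicle tumor B1L. For rapamycin against vehicle, 12 members were lower, 20 with median-of-ratios scaling, 7 when only these groups were fitted, and 5 to 14 with a tumor left out. For both drugs against loratadine, 0 members were lower, and 1 each with no filter and with array weights. Over single members in the rapamycin effect, 526 of the alternative values kept their direction and side of the threshold, 33 lost the call, 12 gained it and 5 changed sign, each without a call. The log2 fold changes concerned were those of Shmt1 (0.042 with array weights; -0.38 to 0.10 with a tumor left out), Sesn2 (0.28 with array weights; -0.45 to 0.18 with a tumor left out) and Cebpb (-0.071 with median-of-ratios scaling). For Shmt1 and Sesn2 the sign changed without rapamycin tumor G3L. The causes were not tested. Median-of-ratios scaling moved the all-gene median of the rapamycin log2 fold change to -0.03, against 0.12 as deposited, and for loratadine to -0.01, against 0.10.

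The labels number no replicates. The only pairing is by cage, for loratadine against vehicle; with the cage as a replicate block, 0 members were lower and 0 higher, at 1 residual degree of freedom. With 2 tumors a group and no read depth, a pair that misses the threshold does not show that its groups had equal levels.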
